A study of Mus musculus with 17 samples.

Results

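The CC chemokines described here are 10 genes, Ccl2, Ccl3, Ccl4, Ccl5, Ccl6, Ccl7, Ccl8, Ccl9, Ccl12 and Ccl22, taken by symbol from a table of 24453 mouse gene models. All 10 were found, each as 1 model, and each had a value in 13 polyA RNA-seq libraries. The values are RPKM, read counts scaled to the exon length of the gene and to the depth of the library, so that levels can be compared between genes as well as between libraries.

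The libraries came from 2 kinds of macrophage that the study used to compare how transcription factors of the AP-1 family act. Immortalised bone marrow-derived macrophages (iBMDMs) are C57Bl/6EiJ cells transformed with BRAF(V600E) and Myc, and all 4 groups of them carry both oncogenes and received vehicle. They were a scramble control (Scramble) and 3 groups edited by CRISPR/Cas9, named Atf3KO, JunKO and, for the Jund gene, JunDKO. Each of the 4 has 2 libraries. The titles of the Scramble libraries read zsGreen and do not name vehicle, whereas those of the edited groups name vehicle. Edited cells carried guides from lentivirus and were sorted for its fluorescent marker, and whether clones were grown from them is not given in the sources used here. Atf3KO replicate 2 has another label date than the other 7 iBMDM libraries. Thioglycollate-elicited macrophages (TGEMs) are primary peritoneal cells, here from mice aged 8 weeks and collected 3 days after thioglycollate. TGEMs carried no edit and were exposed to vehicle or to KLA, a lipid A that activates TLR4, for 1 h. From C57Bl/6EiJ mice there is 1 library of each treatment, and from Balb/cJ mice there are 2 with KLA and 1 with vehicle.

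Chemokines are small secreted proteins that steer white blood cells along a gradient by way of G protein-coupled receptors. In the CC class the first cysteines of the mature protein lie side by side. Macrophages are a main source of this class: the monocyte attractants Ccl2, Ccl7, Ccl8 and Ccl12 draw in cells that carry receptors such as Ccr2, Ccl3, Ccl4 and Ccl5 are inflammatory chemokines that attract several kinds of white blood cell, Ccl6 and Ccl9 are rodent chemokines of the Ccr1 type, and Ccl22 attracts T cells through Ccr4. Many of these genes are known as rapid targets of TLR4 signalling through NF-κB and AP-1.

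Some facts of the whole series bear on every value below. Depth, recovered from the step that 1 read makes in the values, was 1553296 to 18444437 reads a library, 74.1% to 86.4% of them in exons. Library pairs of a group correlated across genes with a Pearson's r of 0.934 to 0.945 on the log2 scale, and each pair differed by more than counting error. The Atf3KO libraries held 10425 and 10631 gene models above 0, against 11884 to 12533 in the other iBMDM libraries. All of the latter but JunDKO replicate 2 were shallower than Atf3KO. The labels do not say whether replicates came from separate cultures or animals, so p-values measure the spread between these libraries, which may be technical. RNA of the edited gene was lower only in JunDKO, with Jund at 6.07 and 6.94 RPKM against 8.33 and 9.19 in Scramble. In Scramble, Atf3 was at 77.4 and 80.7 RPKM and Jun at 17.6 and 18.5, while Atf3 reached 154 and 169 where the label is Atf3KO and Jun 20.5 and 26.2 where it is JunKO. An edit that changes only the protein is not checked by exonic reads, and the edited groups are named as labelled. The study reports that western blots checked the knockouts, and that Jun binding was substantially lost in Jun knockout iBMDMs. All libraries are labelled male, yet the 5 TGEM libraries held 863 to 8676 reads of Xist and the iBMDM libraries 0 to 3. Of 8 macrophage markers, 8 reached 16 RPKM in at least 1 library. Among other markers, S100a8 was the only 1 of 8 neutrophil genes to reach 16 RPKM, none of the markers of T and NK cells, B cells, eosinophils, mast cells or dendritic cells did, and Col1a1, Col1a2 and Dcn of 6 mesothelial and fibroblast genes did so in TGEMs. In bulk RNA, fewer cells of a type and less RNA per cell cannot be told apart.

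Of the 10 genes, 9 lie on chromosome 11 in 2 stretches (1-based positions on mm10). In the first, all on the plus strand, are Ccl2 (82035577 to 82037452), Ccl7 (82045712 to 82047523), Ccl12 (82101845 to 82103399) and Ccl8 (82115185 to 82116799). The second holds Ccl5 (83525779 to 83530518), Ccl9 (83572917 to 83578636), Ccl6 (83587886 to 83593087) and Ccl3 (83647843 to 83649378) on the minus strand and Ccl4 (83662584 to 83664683) on the plus strand. Ccl22 is on chromosome 8 (94745684 to 94751388, plus strand). The genes are short, with 506 exonic bases for Ccl8 to 3002 for Ccl9, and related in sequence, so reads could in principle be shared between copies. The longest run of bases found in the RefSeq transcripts of 2 members was 25, in Ccl6 and Ccl9, followed by 23 in Ccl2 and Ccl7.

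Sequences upstream of the transcription start were at hand for Ccl3, Ccl6, Ccl8, Ccl9, Ccl12 and Ccl22, from RefSeq on GRCm38.p6, the build of mm10. The 5 on chromosome 11 are shown because neighbours among them, Ccl6 with Ccl9 and Ccl12 with Ccl8, differed in how they were expressed, and because Ccl3 had the highest level of any member. Each is the 250 bases before the start on the strand of the gene, 5′ to 3′. Capitals mark matches to any of 7 motifs that were searched on both strands, in these bases and the first 50 after the start.
Ccl9, chr11:83578637-83578886, minus strand: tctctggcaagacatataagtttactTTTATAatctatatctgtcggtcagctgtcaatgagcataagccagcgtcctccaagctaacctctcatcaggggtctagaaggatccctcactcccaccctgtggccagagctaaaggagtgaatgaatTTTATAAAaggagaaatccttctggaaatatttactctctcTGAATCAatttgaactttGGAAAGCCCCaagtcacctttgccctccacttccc
Ccl6, chr11:83593088-83593337, minus strand: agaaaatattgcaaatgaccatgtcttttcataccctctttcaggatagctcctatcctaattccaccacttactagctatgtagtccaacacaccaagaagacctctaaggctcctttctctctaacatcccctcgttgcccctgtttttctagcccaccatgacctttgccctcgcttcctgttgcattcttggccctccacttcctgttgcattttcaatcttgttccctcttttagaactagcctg
Ccl3, chr11:83649379-83649628, minus strand: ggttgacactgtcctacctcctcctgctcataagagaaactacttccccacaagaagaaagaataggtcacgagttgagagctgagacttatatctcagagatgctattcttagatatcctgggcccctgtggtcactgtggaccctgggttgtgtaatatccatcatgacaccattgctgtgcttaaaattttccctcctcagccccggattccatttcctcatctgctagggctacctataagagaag
Ccl12, chr11:82101595-82101844, plus strand: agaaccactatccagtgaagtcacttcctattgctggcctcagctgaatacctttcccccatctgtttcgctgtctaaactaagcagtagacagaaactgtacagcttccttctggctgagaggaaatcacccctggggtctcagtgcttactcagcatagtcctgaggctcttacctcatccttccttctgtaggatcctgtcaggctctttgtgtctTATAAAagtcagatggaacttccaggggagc
Ccl8, chr11:82114935-82115184, plus strand: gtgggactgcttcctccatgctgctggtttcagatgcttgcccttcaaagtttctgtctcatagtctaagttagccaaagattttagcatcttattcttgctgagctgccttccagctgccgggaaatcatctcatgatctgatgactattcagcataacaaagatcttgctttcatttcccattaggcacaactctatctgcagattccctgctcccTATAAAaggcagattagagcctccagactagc

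The motifs were the AP-1 site TRE (TGANTCA, in 7.81% of 32851 RefSeq promoters of the same 300 bases), the CRE (TGACGTCA, 1.79%), the κB consensus (8.46%), the ISRE (GAAANNGAAA, 3.44%), the TATA box (TATAAA, 13.6%), a C/EBP motif (TTGCNNAA, 10.8%) and a PU.1 motif (GAGGAAGT, 3.2%). Ccl9 had 5 matches: a TRE (TGAATCA) that began 53 bases before the start, a κB match on the opposite strand at 35 bases before it, and 3 TATA matches, of which a pair on opposite strands overlapped. Ccl12 and Ccl8 each had a TATA match, 31 and 32 bases before the start. Ccl3, Ccl6 and Ccl22 had no match to these letters in this window, which says nothing about binding of the factors elsewhere or to other letters. The upstream bases of Ccl6 and Ccl9 shared a run of at most 13 bases.

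Taken as a sum, CC chemokine RNA was at 276 to 435 RPKM in the 8 iBMDM libraries. The vehicle TGEM libraries were at 526 (C57Bl/6EiJ) and 287 (Balb/cJ), and the KLA libraries at 1337 (C57Bl/6EiJ), 4965 and 2617 (Balb/cJ). Reads of the 10 genes were 0.0495% to 0.106% of exonic reads outside KLA and 0.199% to 0.477% after it. The main chemokine differed: Ccl9 led in each iBMDM library with 38.6% to 65.3% of the sum, Ccl6 in both vehicle TGEM libraries with 77.2% and 44.7%, and Ccl3 or Ccl4 after KLA with 28.0% to 45.6%.

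**Figure D1:**
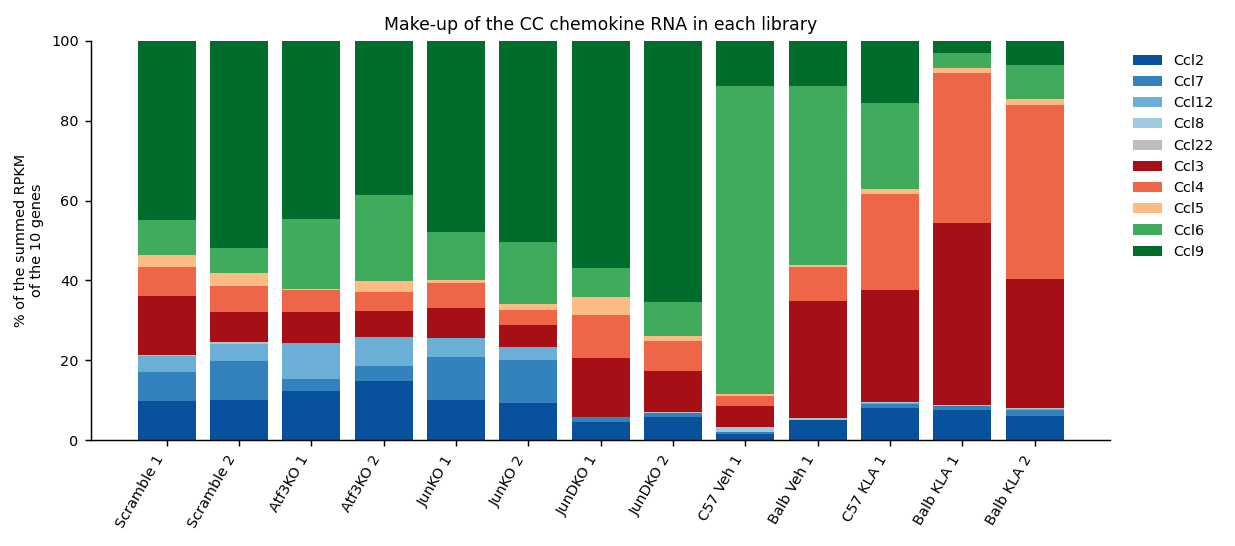
Share of each gene in the summed RPKM of the 10 CC chemokines (y axis, %) for the 13 libraries (x axis). Ccl9 takes 38.6% to 65.3% in iBMDMs, Ccl6 77.2% and 44.7% in vehicle TGEMs, and Ccl3 with Ccl4 most of the bar after KLA in Balb/cJ.

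The first gene in the order of levels stood above the next in the iBMDM groups and vehicle TGEMs but not after KLA, and many neighbours below it overlapped. In Scramble, Ccl9 (mean 151 RPKM) stood above Ccl3, Ccl2, Ccl7, Ccl6 and Ccl4, whose means ran from 34.7 to 21.3 and whose ranges overlapped from each gene to the next. Ccl12 (12.5), Ccl5 (9.43), Ccl8 (1.09) and Ccl22 (0.324) followed without overlap, although the last pair rest on 2 reads each. After KLA, Ccl3 (mean 1161) and Ccl4 (1108) overlapped at the top, Ccl6 (232), Ccl2 (214) and Ccl9 (174) overlapped below them, and Ccl5 (38.2) and Ccl7 (34.3) overlapped below those. Ccl22, Ccl8 and Ccl12 stayed under 16 RPKM in each of the 5 TGEM libraries. Among all 130 values of the members, 17 were 0.

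**Figure D2:**
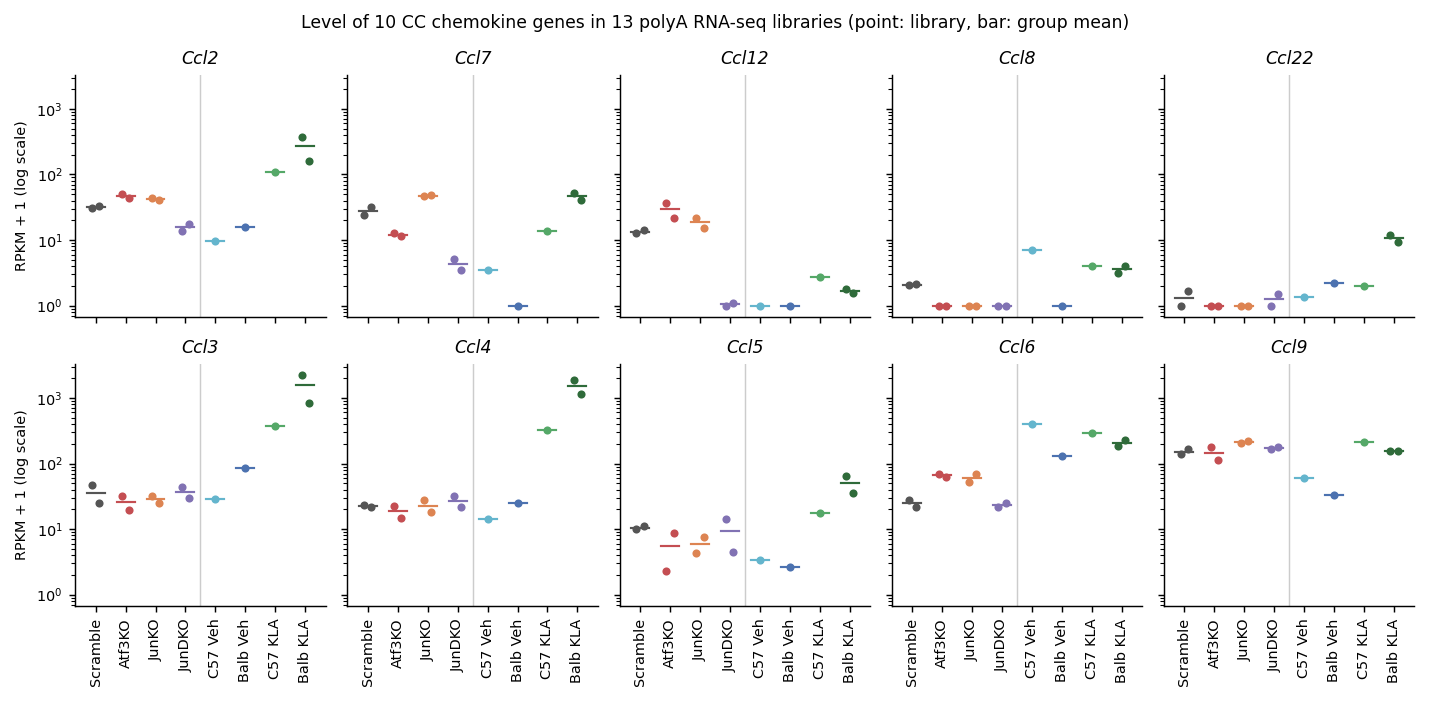
RPKM + 1 on a log scale (y axis) of each CC chemokine in 8 groups (x axis, C57 for C57Bl/6EiJ, Balb for Balb/cJ, Veh for vehicle). Points are libraries and bars group means, and the grey line parts iBMDMs from TGEMs. Ccl7 and Ccl12 are lowest in JunDKO among iBMDMs, and Ccl3 and Ccl4 reach their highest values after KLA.

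The comparisons between iBMDM groups ask which chemokines depend on which AP-1 member. Values were fitted on the log2(RPKM + 1) scale with limma over the 8 libraries. A gene counts as called with a Benjamini-Hochberg adjusted p under 0.05, if it changed at least 2-fold and one of the groups compared averaged 16 RPKM or more. Fold changes on this scale understate the change of genes with low values. Ccl8 and Ccl22 did not reach a mean of 1 RPKM over the 8 libraries and were not tested, which left 8 members. Against Scramble, 3 of 8 were called in Atf3KO, where the share over all genes was 12.5%, 2 of 8 in JunDKO, where it was 4.97%, and 0 of 8 in JunKO, where it was 0.196%. Without Atf3KO replicate 2, which leaves libraries of 1 label date, the calls in Atf3KO were again Ccl6 (1.53), Ccl7 (-1.11) and Ccl12 (1.44), with limma adjusted p of 0.0124 to 0.037. As 1 Atf3KO library is then left, these p-values take its spread from the remaining groups. In JunKO 2 of 8 members and 842 of 10691 genes had an unadjusted p under 0.05, and limma-voom on recovered reads called 0. The median log2 fold change of the tested members was -0.20 in Atf3KO, -0.22 in JunDKO and 0.43 in JunKO, beside 0.05, 0.23 and 0.01 over all tested genes.

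Among the monocyte attractants, Ccl7 had its lowest values in JunDKO and its highest in JunKO. Its RPKM was 22.8 and 30.9 in Scramble, 45.8 and 47.0 in JunKO, 11.7 and 10.4 in Atf3KO, and 4.05 and 2.53 in JunDKO. No pair of these groups overlapped. Ccl7 fell in JunDKO, with a log2 fold change of -2.71 ± 0.24 (SE, n = 2 libraries per group; limma adjusted p = 0.000386), and in Atf3KO, with -1.19 ± 0.24 (adjusted p = 0.00668). Against JunKO it was lower in JunDKO by 11.2-fold (adjusted p = 0.000135) and in Atf3KO by 3.93-fold (adjusted p = 0.00147). The higher level in JunKO than in Scramble, 0.78 ± 0.24, was not called (adjusted p = 0.39), and neither was the difference of Atf3KO from JunDKO, 1.52 ± 0.24 (adjusted p = 0.00218), where both means were under 16 RPKM. The Atf3KO call against Scramble held in 15 of 19 alternatives. It was lost without Scramble replicate 2 (log2 fold change -0.98), with a pseudocount of 5 (-0.98) and with a correction for GC content (-0.65). With all 13 libraries in a single fit it was lost as well (-1.19, limma adjusted p = 0.152). Across 10617 genes, fold changes in Atf3KO were higher in transcripts of higher GC content (Spearman's rho = 0.50), and that of Ccl7 is 43.0%.

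Ccl12 was almost absent from JunDKO. It was at 11.7 and 13.2 RPKM in Scramble, 21.0 and 14.3 in JunKO, 35.5 and 20.8 in Atf3KO, and 0 and 0.102 in JunDKO. In reads, the JunDKO libraries held 0 and 1, the second of them in the deepest library of the series. JunDKO thus lay below each other group, and Atf3KO above Scramble. Pooled over libraries the read rate in Scramble was 132 times that in JunDKO (exact 95% interval 21.5 to 5420, counting error only), and in JunKO it was 187 times that in JunDKO (31.3 to 7621). The difference of JunDKO from JunKO was called (log2 fold change -4.13 ± 0.29, limma adjusted p = 0.000176) and so was that of Atf3KO from JunDKO (4.75 ± 0.29, adjusted p = 5.61e-05). Against Scramble, JunDKO was not called although its adjusted p was 0.00026, because the mean of Scramble was under 16 RPKM. Ccl12 rose in Atf3KO over Scramble by 1.07 ± 0.29 (adjusted p = 0.0214), a call that held in 11 of 19 alternatives and was lost without Scramble replicate 1 (0.99), Scramble replicate 2 (1.15) or Atf3KO replicate 1 (0.70), with adjusted p of 0.0836 to 0.0973 by limma. The JunDKO call against JunKO was lost without JunKO replicate 1, which brought the mean under 16 RPKM.

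Ccl2, the best known monocyte attractant, changed less. Its values were 29.8 and 32.1 RPKM in Scramble, 42.5 and 40.1 in JunKO, 49.4 and 43.0 in Atf3KO, and 12.9 and 16.4 in JunDKO. The JunDKO values were below those of the other groups, and the Atf3KO and JunKO values above those of Scramble. Ccl2 fell in JunDKO against Scramble by 1.04 on the log2 scale (SE 0.19, limma adjusted p = 0.00995), close to the limit of 2-fold, and the call was lost without Scramble replicate 1 (-1.09, adjusted p = 0.0537), Scramble replicate 2 (-0.99) or JunDKO replicate 1 (-0.88). Larger and also called were the differences of JunDKO from JunKO (-1.44 ± 0.19, adjusted p = 0.00316) and of Atf3KO from JunDKO (1.60 ± 0.19, adjusted p = 0.000653). In Atf3KO against Scramble the log2 fold change was 0.56 ± 0.19 (adjusted p = 0.0429), short of 2-fold. With the GC correction Ccl2 was called higher (1.06, limma adjusted p = 0.00145), so that the 3 calls in Atf3KO were 3 higher and 0 lower in place of 2 and 1.

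Ccl8, the last gene of that stretch, was almost absent from iBMDMs, with 1 read in each Scramble library and 0 reads in the other 6. A single read gives Scramble an exact 95% interval of 0.0259 to 5.71 RPKM in replicate 1 and 0.0292 to 6.43 in replicate 2 (counting error only). A count of 3 reads would have been 0.321 RPKM in JunDKO replicate 2 and 0.819 to 3.82 in the other 5 libraries, and no difference was read from these values. Summed over Ccl2, Ccl7, Ccl12 and Ccl8, the stretch was at 16.9 and 19.0 RPKM in JunDKO, against 65.3 and 77.4 in Scramble, 96.7 and 74.2 in Atf3KO, and 109 and 101 in JunKO. The genes did not change in step. The ratio of Ccl7 to Ccl2 was 0.768 and 0.963 in Scramble and 1.08 and 1.17 in JunKO, but 0.238 and 0.243 in Atf3KO and 0.315 and 0.154 in JunDKO. That of Ccl12 to Ccl2 was 0.357 to 0.720 in Scramble, Atf3KO and JunKO and at most 0.00623 in JunDKO. In Atf3KO, then, Ccl7 was lower and Ccl12 higher than in Scramble while both were lower in JunDKO.

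**Figure D3:**
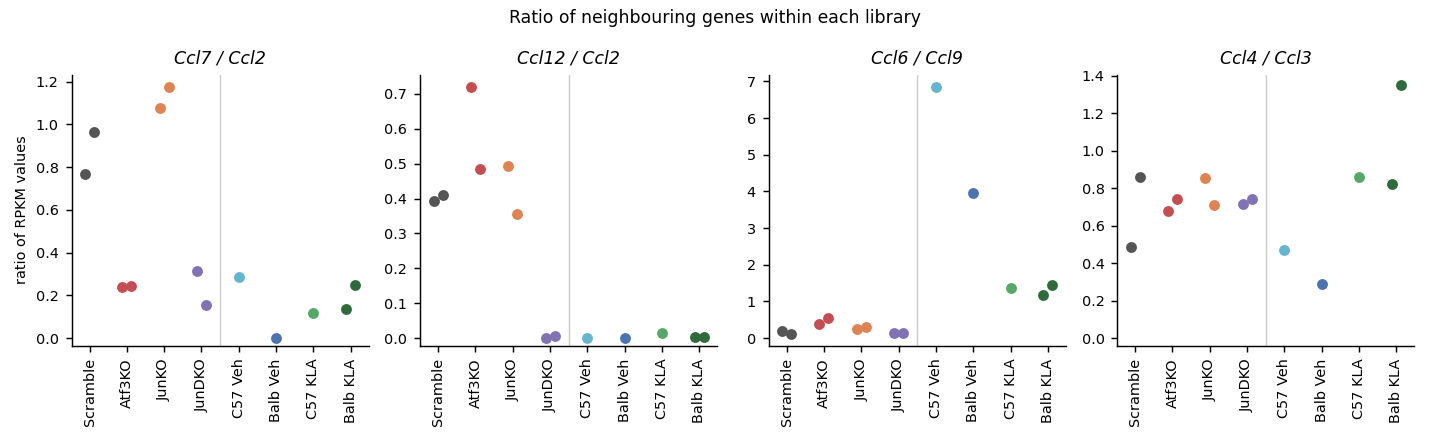
Ratio of the RPKM values of neighbouring genes (y axis) in each library (points) of the 8 groups (x axis). Ccl7 against Ccl2 is at 0.768 to 1.17 in Scramble and JunKO and at 0.154 to 0.315 in Atf3KO and JunDKO, and Ccl6 against Ccl9 is below 1 in iBMDMs and above 1 in TGEMs.

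S100a8, a neutrophil and myeloid gene, was lower in JunDKO as these genes were, whereas in JunKO it lay below Scramble and in Atf3KO it overlapped Scramble. It was at 33.2 and 34.8 RPKM in Scramble, 22.7 and 24.1 in JunKO, 21.8 and 41.1 in Atf3KO, and at 0 in both JunDKO libraries. The other 7 neutrophil markers were at 0 in all 8 iBMDM libraries. The 8 macrophage markers summed to 16880 and 17442 RPKM in JunDKO and 22314 and 23851 in Scramble. Lyz2, the most abundant of them, had a log2 fold change of -0.48, and the median of the 8 was 0.19. Of the 8 markers, 1 was called higher in JunDKO (Mertk) and none lower. Itgam was at -0.99 on the log2 scale (limma adjusted p = 0.00598), short of 2-fold. The part of a shift in the makeup of the cells in the values of Ccl2, Ccl7 and Ccl12 was not tested.

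The inflammatory chemokines Ccl3, Ccl4 and Ccl5 were not called in any comparison between iBMDM groups. Ccl3 was at 45.5 and 23.8 RPKM in Scramble, 31.4 and 23.8 in JunKO, 31.3 and 18.8 in Atf3KO, and 42.6 and 28.3 in JunDKO. The groups overlapped, and the 95% interval of the difference of Atf3KO from Scramble ran from -1.27 to 0.42 on the log2 scale. Ccl4 lay between 13.9 and 30.5 RPKM in the 8 libraries, again with overlap of the groups, and its interval in JunDKO against Scramble was -0.45 to 0.92. Ccl5 was low and uneven, from 1.30 RPKM in Atf3KO replicate 1 to 13.5 in JunDKO replicate 1, so that changes of 2-fold lie inside its interval in JunDKO against Scramble (-1.96 to 1.22).

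Ccl6 and Ccl9, neighbours on chromosome 11, behaved differently. Ccl6 was at 26.8 and 20.4 RPKM in Scramble, 50.9 and 67.3 in JunKO, 69.3 and 62.0 in Atf3KO, and 20.7 and 23.6 in JunDKO. Atf3KO and JunKO stood above Scramble and JunDKO, which overlapped. Ccl6 rose in Atf3KO by 1.45 ± 0.21 on the log2 scale (2.73-fold, limma adjusted p = 0.00216), and that call held in each of the 19 alternatives. In JunKO the difference from Scramble was of like size, 1.29 ± 0.21, with an adjusted p of 0.0758, and it was called with the GC correction (adjusted p = 0.0207). The interval of Atf3KO against JunKO was -0.33 to 0.66. JunDKO was lower than JunKO by 1.37 (SE 0.21, adjusted p = 0.00727), a call that was lost without JunKO replicate 2, JunDKO replicate 1 or JunDKO replicate 2 (adjusted p = 0.0627 to 0.0874), and Atf3KO was higher than JunDKO by 1.53 (SE 0.21, adjusted p = 0.00137). Ccl9, the most abundant, was at 137 and 164 RPKM in Scramble, 204 and 218 in JunKO, 177 and 111 in Atf3KO, and 164 and 180 in JunDKO, and none of its differences was called. The JunKO values were the highest, with an interval against Scramble of -0.05 to 1.03.

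Across the comparisons of 2 edited groups, 3 of 8 members were called in Atf3KO against JunDKO (share of all genes 12.2%), 4 of 8 in JunDKO against JunKO (3.5%) and 1 of 8 in Atf3KO against JunKO (9.71%). These comparisons share libraries and are not independent of each other. All 4 calls of JunDKO against JunKO, Ccl2, Ccl6, Ccl7 and Ccl12, were lower in JunDKO, where the median over all tested genes was 0.23.

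**Figure D4:**
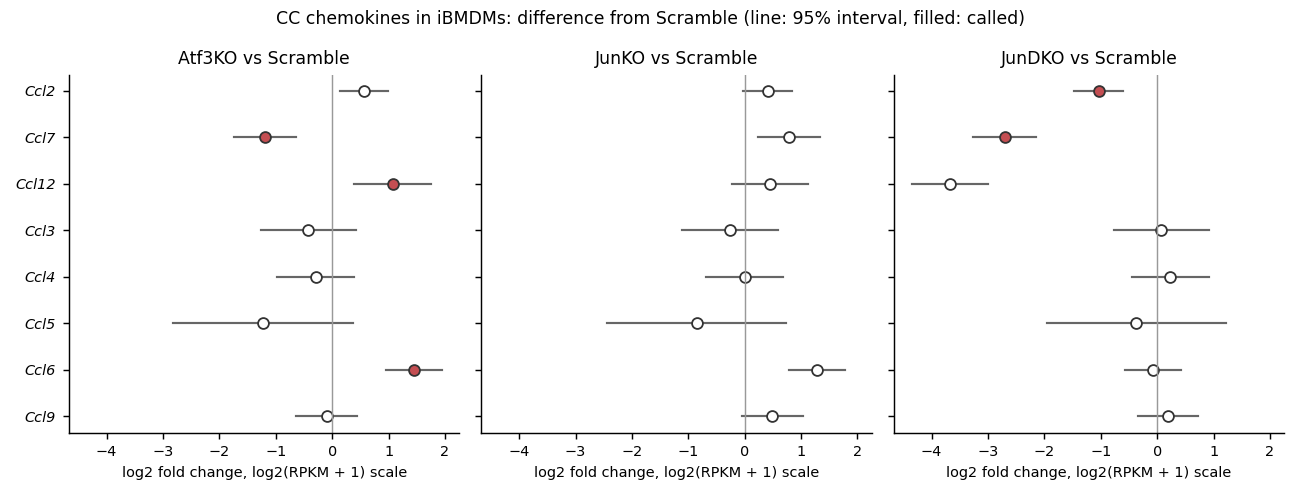
Log2 fold change on the log2(RPKM + 1) scale (x axis) of 8 CC chemokines against Scramble, with limma's 95% interval (lines). Filled points were called. Ccl7 is at -2.71 in JunDKO and -1.19 in Atf3KO, and Ccl12 at -3.68 and 1.07, the former not called because the mean was under 16 RPKM.

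The comparison of KLA with vehicle asks what TLR4 activation does within 1 h in primary cells. It was fitted over 5 TGEM libraries with strain as a term, and 9 members were tested. Of these 6 rose and none fell, where 1.13% of all tested genes were called. The median log2 fold change of the tested members was 3.42, beside -0.15 over all genes. With 2 vehicle libraries, 1 per strain, these calls rest on few residual degrees of freedom: 0 were left without the Balb/cJ vehicle library, when the adjusted p of the 6 ran from 0.0728 to 0.338, and 3 without Balb/cJ KLA replicate 1, when those of Ccl5, Ccl7 and Ccl9 were lost. Without either C57Bl/6EiJ library Ccl3 and Ccl9 were lost (limma adjusted p = 0.0617 to 0.0655). The direction of the 6 held in all 15 alternatives. KLA libraries and vehicle libraries did not overlap for any of the 6. As the 6 were called on these same values, this adds no support.

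Ccl4 changed most among the genes with a measurable level before KLA. It was at 13.1 RPKM in C57Bl/6EiJ vehicle and 24.1 in Balb/cJ vehicle, and at 321 in C57Bl/6EiJ and 1863 and 1141 in Balb/cJ after KLA, a log2 fold change of 5.28 ± 0.39 (limma adjusted p = 0.00097). Against the vehicle library of the same strain that is 24.5-fold in C57Bl/6EiJ and 77.2-fold and 47.3-fold in Balb/cJ. Ccl3 started higher, at 27.8 and 84.3 RPKM, and reached 375 in C57Bl/6EiJ and 2265 and 844 in Balb/cJ (3.89 ± 0.43, adjusted p = 0.00529). In Balb/cJ KLA replicate 1, Ccl3 ranked 15 and Ccl4 ranked 19 among all gene models. Ccl5, at 2.33 and 1.62 RPKM before KLA, was at 16.4 in C57Bl/6EiJ and 63.7 and 34.7 in Balb/cJ after it (3.42 ± 0.45, adjusted p = 0.0125).

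Of the monocyte attractants, Ccl2 rose from 8.54 (C57Bl/6EiJ) and 14.9 RPKM (Balb/cJ) to 109 (C57Bl/6EiJ) and 371 and 162 (Balb/cJ), by 3.77 ± 0.39 (limma adjusted p = 0.00386). Ccl7 went from 2.43 and 0 RPKM to 12.8 in C57Bl/6EiJ and 50.3 and 39.8 in Balb/cJ (4.01 ± 0.69, adjusted p = 0.0381). The fitted value for Ccl7 depends on the pseudocount because the Balb/cJ vehicle library held 0 reads, and with 3 reads as the floor Ccl7 was at least 29.4-fold higher in Balb/cJ. In C57Bl/6EiJ the ratio was 5.26 (exact 95% interval 2.97 to 9.47, counting error only). The Ccl7 call held in 4 of 15 alternatives, with an adjusted p of at most 0.274 in the others. Ccl12 held 0 reads in both vehicle libraries and 3, 7 and 2 after KLA, and was too low to be tested. Pooled over libraries it was at least 2.03-fold higher with KLA against a floor of 3 reads. Ccl8 was at 6.06 and 0 RPKM before and 3.04, 2.18 and 3.00 after KLA, with no call.

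Ccl9 and Ccl6 parted again. Ccl9 rose from 59.3 (C57Bl/6EiJ) and 32.4 (Balb/cJ) to 210 in C57Bl/6EiJ and 156 and 157 in Balb/cJ, by 2.05 ± 0.26 (limma adjusted p = 0.0104). Ccl6 was at 406 and 128 RPKM before and 287, 182 and 226 after KLA. Its groups overlapped, with a difference of 0.16 ± 0.34 (adjusted p = 0.845) and an interval of -0.63 to 0.95. The ratio of Ccl6 to Ccl9 was accordingly 6.85 and 3.96 in vehicle and 1.17 to 1.44 after KLA, and 0.125 to 0.559 in iBMDMs. Ccl22 was at 0.340 (C57Bl/6EiJ) and 1.18 RPKM (Balb/cJ) before and 1.02 (C57Bl/6EiJ), 10.7 and 8.41 (Balb/cJ) after KLA, not called at 1.55 ± 0.41 (adjusted p = 0.162).

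**Figure D5:**
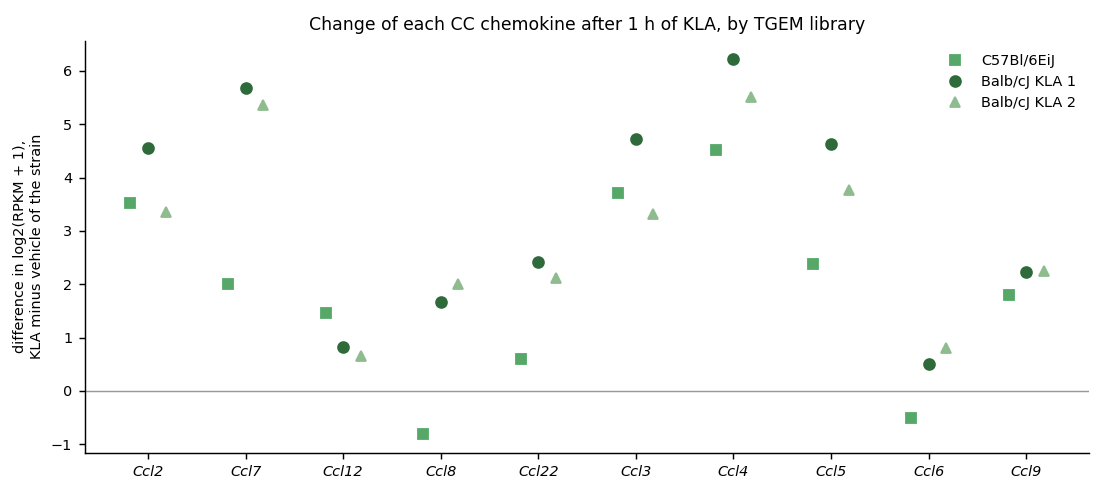
Difference in log2(RPKM + 1) of each KLA library from the vehicle library of its strain (y axis) for the 10 genes (x axis). Ccl4 shows 4.51 to 6.21 and Ccl6 -0.50 to 0.81. Both Balb/cJ points of a gene share the same vehicle library, and no member was called in the interaction of KLA and strain.

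Label dates offer a partial check, since the C57Bl/6EiJ libraries share a date and so do the Balb/cJ vehicle library and Balb/cJ KLA replicate 1. Within these dates Ccl2 was 12.8-fold and 24.9-fold higher with KLA, Ccl3 13.5-fold and 26.9-fold, and Ccl5 7.01-fold and 39.3-fold. With label date in place of strain, 3 members were called, Ccl2, Ccl3 and Ccl4. B cell markers summed to 11.4 and 14.5 RPKM in vehicle and to 11.8 to 25.3 after KLA, mast cell markers to 1.78 and 7.25 and to 2.76 to 19.2, and mesothelial and fibroblast markers to 60.4 and 81.6 and to 40.4 to 74.0. Their part in the KLA response was not tested.

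No member was called for Balb/cJ against C57Bl/6EiJ, where 1.16% of all genes were, and none in the interaction of KLA and strain, where 0% were. By unadjusted p under 0.05, limma gave 6 of 9 members for strain and 3 of 9 for the interaction, beside 2213 and 835 of 10357 genes. Limma-voom on the recovered reads called 3 members higher in Balb/cJ, Ccl3 (log2 fold change 1.78, adjusted p = 0.00237), Ccl4 (1.84, adjusted p = 0.00169) and Ccl7 (1.64, adjusted p = 0.0302), and none in the interaction. On RPKM, Ccl7 was at 0.23 ± 0.69 (limma adjusted p = 0.873), with values of -1.78 to 1.73 over the alternatives, so that its direction was not stable. Ccl3 was higher in Balb/cJ by 1.75 ± 0.43 (limma adjusted p = 0.086) and Ccl4 by 1.60 ± 0.39 (adjusted p = 0.0849), and both Balb/cJ KLA libraries were above the C57Bl/6EiJ KLA library for each. Ccl22 (1.66) and Ccl2 (0.98) also had positive and Ccl8 (-1.31) and Ccl9 (-0.61) negative values that were not called, and Ccl5 (0.69) ran from -0.35 to 1.47 over the alternatives. Ccl6 went the other way from Ccl3, lower in Balb/cJ with -0.99 ± 0.34 (adjusted p = 0.159). For Ccl22 after KLA the read rate in Balb/cJ was 9.88 times that in C57Bl/6EiJ (exact 95% interval 4.5 to 27.1, counting error only). Strain cannot be told apart from label date, since no date holds both strains. Of 8 macrophage markers, Csf1r was called lower in Balb/cJ and none higher, with a median of -0.89 on the log2 scale. The part of these markers in the strain values was not tested. Balb/cJ reads were aligned to a genome made for that strain.

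Vehicle TGEMs and Scramble iBMDMs were compared in a fit of all 13 libraries with all 10 members tested. Of these 1 was higher in TGEMs and 3 were lower, where 19.9% of all genes were called. Cell kind, label date and the presence of Xist RNA cannot be told apart here. The fit averages TGEMs over both strains, while Scramble is C57Bl/6EiJ. Ccl6 was 9.4-fold higher in TGEMs (log2 fold change 3.23 ± 0.29, limma adjusted p = 1.06e-05). Ccl9 was lower by 3.37-fold (-1.75 ± 0.24, adjusted p = 0.000188), Ccl2 by 2.59-fold (-1.37 ± 0.33, adjusted p = 0.00563) and Ccl7 was lower as well, with a log2 fold change of -3.90 ± 0.62 (adjusted p = 0.000514). The size for Ccl7 depends on the pseudocount and on the Balb/cJ vehicle library, which held 0 reads. Without that library it was -2.14 and without the C57Bl/6EiJ vehicle library -5.65. Fits without a vehicle library take the strain difference from the KLA libraries, so their values are not plain differences between libraries. The value of -5.65 is larger than a vehicle level of 0 could give on this scale. Ccl7 was called in all 21 alternatives. The Ccl2 call was lost without the Balb/cJ vehicle library (-1.16, adjusted p = 0.0819) and with the GC correction (-0.73). Ccl12, at 0 reads in both vehicle TGEM libraries and 12 in each Scramble library, was at least 30.2-fold lower in TGEMs by a floor of 3 reads over the group, and was not called as its mean in Scramble was under 16 RPKM. Ccl3 (0.54), Ccl4 (-0.25), Ccl5 (-1.82, limma adjusted p = 0.0527), Ccl8 (0.35) and Ccl22 (0.41) were not called. The median difference over all genes was -0.32. Mesothelial and fibroblast markers were higher in vehicle TGEMs than in Scramble, where they summed to 0.276 and 0.532 RPKM, and so were B cell markers, at 0 and 0.443 in Scramble. Of 8 macrophage markers 6 were called lower in vehicle TGEMs and 2 higher, with a median of -2.14 on the log2 scale, and S100a8 was called lower (-1.56, limma adjusted p = 0.0493). Their part in these differences was not tested.

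Other genes of the pathway gave a setting for these values. Of 14 other CC chemokine genes 8 were at 0 in all 13 libraries, the sum of the list was at most 5.75 RPKM, and neither Ccl25, tested in iBMDMs and between cell kinds, nor Ccl24, tested in TGEMs, was called. Among 15 CC chemokine receptors, Ccrl2, an atypical receptor that binds without the usual signal, rose with KLA, from 93.5 (C57Bl/6EiJ) and 67.0 (Balb/cJ) to 670 (C57Bl/6EiJ) and 1341 and 1117 RPKM (Balb/cJ) (log2 fold change 3.59 ± 0.36, limma adjusted p = 0.0032). Against Scramble it was higher in vehicle TGEMs (4.66 ± 0.30, adjusted p = 1.25e-06), as was Ccr1 (2.77 ± 0.31, adjusted p = 4.18e-05), the receptor that Ccl3, Ccl5, Ccl6 and Ccl9 can bind. No receptor was called between iBMDM groups, where none of the 5 tested reached 16 RPKM. Of these, Ccr2 was at 2.62 ± 0.30 (adjusted p = 0.00129) and Ccr1 at 1.90 ± 0.28 (adjusted p = 0.00431) in JunDKO against Scramble, and Ccr1 at -1.52 ± 0.28 (adjusted p = 0.00483) and Ccrl2 at -1.42 ± 0.32 (adjusted p = 0.00998) in Atf3KO. The list summed to 36.5 and 41.2 RPKM in JunDKO, 1.61 and 2.93 in Atf3KO, and 12.1 and 14.1 in Scramble. Atf3KO libraries held fewer gene models above 0 than Scramble, and all 14 other CC chemokine genes were at 0 there. The part of this in the receptor values of Atf3KO was not tested. Of 27 tested genes of the TLR4 pathway and NF-κB, 7 rose with KLA and none fell, where 1.13% of all genes were called. In iBMDMs against Scramble, 3 fell in JunDKO (Irak3, Ikbkg and Tnfaip3), where the share over all genes was 4.97%. In Atf3KO 1 rose (Nfkbib) and 2 fell (Ikbkg and Tnfaip3), which did not exceed the share of 12.5% over all genes. None was called in JunKO, where the share was 0.196%. With KLA the largest were Nfkbiz (6.37 ± 0.26, adjusted p = 0.000144) and Nfkbia (5.64 ± 0.26, adjusted p = 0.000196), regulators of NF-κB. Of 14 tested AP-1 genes, Junb (3.77 ± 0.41, adjusted p = 0.00521) and Fos (3.08 ± 0.47, adjusted p = 0.0234) rose with KLA. Of 10 tested in iBMDMs, Jund (2.19 ± 0.49, adjusted p = 0.01), Jdp2 (1.09 ± 0.18, adjusted p = 0.00344) and Atf3 (1.02 ± 0.16, adjusted p = 0.00237) rose in Atf3KO against Scramble. Fos (1.51 ± 0.39, adjusted p = 0.0423) rose in JunDKO, and none was called in JunKO. Jund was uneven in Atf3KO, with libraries at 22.6 and 83.0 RPKM. The shares over all genes given above apply to the AP-1 genes too.

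Likeness of pattern was measured as Pearson's r of log2(RPKM + 1) over the 13 libraries among 6203 gene models that are at least 200 bases long and reach 16 RPKM somewhere, for the 8 members that do so themselves. The points share libraries, and r mixes the gaps between cell kinds, treatments and edited groups. Among the members, Ccl3 and Ccl4 were most alike (r = 0.98) and Ccl3 and Ccl12 least (r = -0.44). Outside the list, Ccl4 was most like Ifnb1 (r = 0.99), the gene of interferon β, at 0 in all libraries but the 3 with KLA, and Il23a (0.98), and Ccl3 most like Vcam1 (0.97) and Tgif1 (0.97). The genes nearest to Ccl2 were Gbp5 (0.94) and Icam1 (0.93), to Ccl5 Sdc4 (0.90) and Nfkbie (0.89), to Ccl7 Rsad2 (0.90) and Sod2 (0.90), and to Ccl9 Tlr2 (0.89) and Myd88 (0.87). Ccl6 was nearest to Slc8b1 (0.96) and Tmem198b (0.95), and Ccl12 to C3 (0.97), the central complement component, and Prdx5 (0.96).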

How the data were processed

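PolyA RNA-seq of 13 mouse macrophage libraries was analysed (groups from the sample labels). The authors aligned reads with STAR to mm10 (Balb/cJ reads to a custom Balb/cJ genome) and counted exonic reads with HOMER. The deposited values are RPKM per gene, with genes condensed to 1 model. Versions and the strand setting are not given in the sources used here. GRO-seq data of 4 samples were not used here.

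Members and gene lists were chosen with earlier results of these data known. Library depth and whole reads were recovered from the steps in RPKM (all low values whole within 0.05 of a read), a step tested on simulated data. Log2(RPKM + 1) values of models averaging 1 RPKM or more were fitted by limma 3.58.1 in R 4.3.3, with a trend and Benjamini-Hochberg adjustment over all models tested: 10691 for iBMDMs, 10357 for TGEMs with strain as a term, and 10929 for all libraries. Errors are standard errors, and p-values are two-sided. Limma-voom on recovered reads was the count-based alternative. Others changed the pseudocount, filter, scaling, GC correction, samples or replicate block. By the rule for named genes all 10 members are described, although some tests that made no call are given only as counts. Of the other lists, called receptors and at most 4 called genes with the largest fold are named, beside the 2 models most like each member. Intervals on read rates are exact, and a floor is 3 reads.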

Additional observations from a re-analysis of the deposited data

Results flagged for a closer look

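For Ccl6, a rodent chemokine of the Ccr1 type, KLA libraries of the strains moved in opposite directions. The C57Bl/6EiJ library changed by -0.50 from its vehicle library on the log2(RPKM + 1) scale, and the Balb/cJ libraries by 0.50 and 0.81. The difference between the strains was 1.16 ± 0.58 (SE, limma adjusted p = 0.692).

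Ccl8, a monocyte attractant with few reads, had values of -0.81 in C57Bl/6EiJ and 1.67 and 2.00 in Balb/cJ on the same scale, a difference of 2.64 ± 0.46 (limma adjusted p = 0.36). It rests on 35 and 5 reads in C57Bl/6EiJ vehicle and KLA, whose ratio was 0.501 (exact 95% interval 0.153 to 1.28, counting error only), and on 0 reads in the Balb/cJ vehicle library, where 3 reads would have been 2.53 RPKM, above the pooled 2.41 RPKM after KLA. Opposite directions are thus not shown for Ccl8. Neither difference passed the threshold, with 1 residual degree of freedom, and no group held the 4 libraries needed to look for single libraries far from the rest.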

How the results depend on the processing

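Few libraries limit every comparison. Of 172 counts of called members under alternatives, 155 stayed within 1.5 times the main count, and no called value reversed. In Atf3KO against Scramble (3 members), 1 was called with a pseudocount of 5, and 1 to 3 with a library left out. In JunKO against Scramble (0) the GC correction gave 1, and in Atf3KO against JunKO (1) it gave 2. In JunDKO against Scramble (2), 1 was called with a pseudocount of 5, with limma-voom and with all 13 libraries in a single fit, and 1 to 2 with a library left out. For KLA (6), 3 were called with no filter on low values and 3 with label date in place of strain, and 0 to 5 with a library left out. For strain (0), limma-voom gave 3, all 13 libraries in a single fit gave 2, and 0 to 1 were called with a library left out. The cause was not tested. The interaction could not be fitted with a library left out, as no residual degrees of freedom remain. Over all genes, counts ranged from 820 to 3068 in Atf3KO (main 1339), 5 to 63 in JunKO (21), 264 to 938 in JunDKO (531), 15 to 228 for KLA (117) and 17 to 345 for strain (120).

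Nothing in the labels says that replicate numbers pair iBMDM libraries. Deviations of same-numbered libraries correlated at 0.22, 0.18 and 0.19 among Scramble, JunKO and JunDKO, which share a label date, and at -0.21 to -0.12 between Atf3KO and these groups, so pairing is unsettled for the former. With the replicate block, called members stayed at 3 in Atf3KO, 0 in JunKO and 2 in JunDKO against Scramble, 3 in Atf3KO against JunDKO, 4 in JunDKO against JunKO and 1 in Atf3KO against JunKO, while the count over all genes in JunKO went from 21 to 8. With the numbers of Atf3KO crossed, chosen after seeing the data, 3, 3 and 1 members were called in its comparisons with Scramble, JunDKO and JunKO.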
